A study of Mus musculus with 14 samples.

Results

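The comparison described here is that of wild-type mouse follicular B cells cultured for 6h with BAFF against the same kind of cells at 0h. It rests on 4 of the 14 RNA-seq libraries of the series, 2 titled as wild type at 6h and 2 titled as wild type at 0h, and on the 12630 genes with enough counts to be tested of the 39179 gene identifiers in the count tables. The cells were isolated from the spleens of C57BL/6 mice with a bead kit for follicular and marginal zone B cells, and were grown in complete RPMI-1640 medium with 50 ng/ml BAFF. The other groups of the series were wild-type cells at 27h, crel-/- cells at 6h and 0h (labelled cko) and relb-/-crel-/- cells at 6h and 0h (labelled dbko), each with 2 libraries. They entered the fit, because all libraries share one estimate of the spread, and the wild-type 27h and crel-/- libraries are cited where they bear on a 6h result. The comparison asks which transcripts differ after the first hours with BAFF. No BAFF-free culture was analysed here, so the effect of BAFF and that of 6h outside the animal cannot be told apart in any result below. The labels name no mouse, sex or age, and nothing in them ties the 2 libraries of a group to different animals or cultures. The spread behind each p-value is that between such libraries and may be technical.

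BAFF is a cytokine of the tumour necrosis factor family that keeps mature B cells alive. Of its receptors, BAFF-R (encoded by Tnfrsf13c) carries the survival signal in resting B cells, TACI (Tnfrsf13b) has mostly restraining roles, and BCMA (Tnfrsf17) belongs to plasma cells. BAFF-R recruits TRAF3 and so spares the kinase NIK (Map3k14), which lets p100, the product of Nfkb2, be processed to p52, the partner of RelB in the alternative NF-kB pathway. The c-Rel subunit (Rel) acts mainly in the classical pathway. BAFF is also known to raise the metabolic capacity of B cells before any division.

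The 2 libraries at 6h held 10548983 and 11454611 reads counted to genes, and the 2 at 0h held 10620035 and 11308901, within the range of 10497802 to 11888765 over all 14 libraries. Each group carried 1 sequencing index, with replicate 1 on lane 7 and replicate 2 on lane 8. The replicate libraries of 1 group differed by more than counting noise (chi-square per gene of 4.76 at 6h and 3.06 at 0h), and were kept as 2 replicates. This value was 2.84 for wt 27h, 3.92 for cko 0h, 22 for cko 6h, 30.92 for dbko 0h and 35.54 for dbko 6h. All these groups share in the estimate of the spread behind each p-value. Of 14 mature B cell markers 9 fell and none rose, with a median log2 fold change of -0.94 and a summed level of 13847 and 14083 CPM at 6h, against 22158 and 22786 CPM at 0h. Cd79a, Ms4a1 and Cd22 were among those that fell, with log2 fold changes of -1.36, -1.24 and -1.53. Cd79b and Ighm were among the 5 that did not pass the test, and Cd79b had 1247 and 1277 CPM at 6h, against 1549 and 1580.0 CPM at 0h. Reads outside annotated genes made up 11.5% and 9.67% of all reads at 6h, against 5.57% and 5.69% at 0h, and reads without a unique position made up 38.8% and 41.5% at 6h, against 49.9% and 49.4% at 0h. The part of these shares in the results was not tested. In bulk RNA fewer cells of a type and less RNA per cell cannot be told apart.

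Between 6h and 0h, 5830 of the 12630 tested genes passed an adjusted p of 0.05 in edgeR's quasi-likelihood test (46.2%), of which 2858 rose (22.6%) and 2972 fell (23.5%). The counts of gene lists below are to be read against these shares. With the spread taken from the wild-type libraries alone, 8166 genes passed. A test against a change of 2-fold called 329 genes higher (2.6%) and 537 lower (4.25%), 866 in all, and 482 to 521 in all with 1 library left out. The median log2 fold change of all tested genes was -0.00, with quartiles of -0.57 and 0.48. Levels are given in CPM on library sizes scaled by TMM, whose factors were 1.037 and 1.029 at 6h, against 0.904 and 0.914 at 0h. With any 1 of the 4 libraries left out, 1561 genes were still called higher (12.4%) and 1766 lower (14.0%). Leaving out 1 library lowered the count of risen genes to 1954 and 2057 without a 6h library and to 1862 and 1865 without a 0h library, and the count of fallen genes to 2058 to 2165. The 6h and 0h libraries did not overlap in 82.8% of the tested genes, and this holds for every gene given below with its values and past the test. A value after ± is a standard error from the fit, and each adjusted p is from this test unless another comparison is named.

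**Figure D1:**
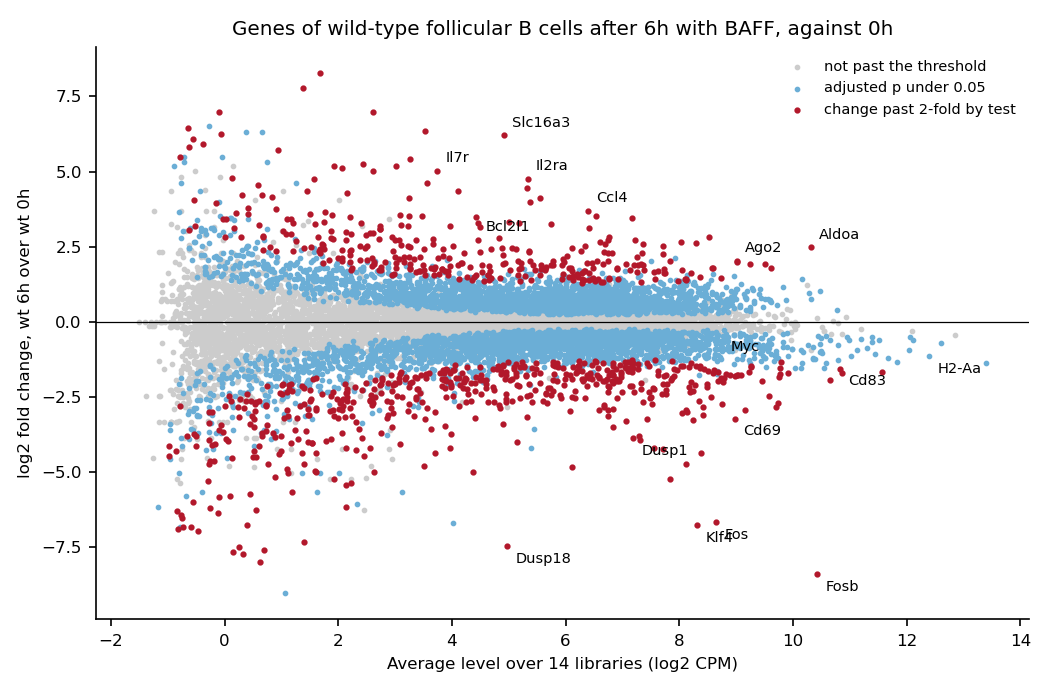
Each point is a tested gene, with its average level over the 14 libraries (log2 CPM) on the x axis and its log2 fold change at 6h over 0h in wild-type cells on the y axis. Red points passed the test against a 2-fold change (329 higher and 537 lower), blue points passed an adjusted p of 0.05 only and grey points passed neither. Among the labelled genes Fosb lies lowest, at a log2 fold change of -8.39, and Slc16a3 highest, at 6.22.

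The 15 largest rises were taken among genes with an average log2 CPM of 3 or more over the 14 libraries. They included 2 cytokine receptor chains, 2 chemokines and genes of lactate and glucose handling, but more of them lay outside these classes. Slc16a3, which encodes the lactate exporter MCT4, had 34.4 and 34.6 CPM at 6h, against 0.417 and 0.484 CPM at 0h (log2 fold change 6.22 ± 0.94, adjusted p = 0.000525). Il7r, the receptor chain for interleukin 7, had 18.03 and 21.995 CPM at 6h, against 0.834 and 0.387 CPM at 0h (log2 fold change 5.03 ± 0.3, adjusted p = 1.97e-07). Il2ra, the high-affinity chain of the interleukin 2 receptor (CD25), had 131 and 136 CPM at 6h, against 5.002 and 4.74 CPM at 0h (log2 fold change 4.77 ± 0.53, adjusted p = 7.54e-05). In all 3 genes both 6h libraries lay far above both 0h libraries. Ccl4, a chemokine that draws T cells and monocytes, had 323 and 420.2 CPM at 6h, against 29.9 and 27.2 CPM at 0h (log2 fold change 3.7 ± 0.4, adjusted p = 6.11e-05). Its neighbour Ccl3, of the same chemokine family, had 170.0 and 238 CPM at 6h, against 11.8 and 11.6 CPM at 0h (log2 fold change 4.12 ± 0.4, adjusted p = 3.05e-05). The glycolytic enzyme gene Eno2 had 19.5 and 21.7 CPM at 6h, against 0.417 and 0.678 CPM at 0h (log2 fold change 5.2 ± 0.35, adjusted p = 4.32e-07). Zbtb46, a transcription factor best known from dendritic cells, had 51.6 and 50.7 CPM at 6h, against 2.501 and 2.42 CPM at 0h, with no overlap between the times (log2 fold change 4.37 ± 0.29, adjusted p = 3.39e-07). Other genes among the 15 largest rises were Msrb3, Ak4, Tbc1d30, Egln3, Rgs11, Ifitm2, Ankrd33b and Zfp948, with log2 fold changes between 3.52 and 6.34.

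A few genes were close to silent at 0h and clearly read at 6h. Gng4, a G protein gamma subunit, had 26.998 and 26.4 CPM at 6h, against 0 and 0.387 CPM at 0h. Il18r1, a chain of the interleukin 18 receptor, had 8.15 and 5.86 CPM at 6h, against 0.208 and 0.2904 CPM at 0h. Msrb3, a methionine sulfoxide reductase, had 17.2 and 17.2 CPM at 6h, against 0.104 and 0.2904 CPM at 0h. Ak4, an adenylate kinase of mitochondria, had 8.88 and 9.43 CPM at 6h, against 0.208 and 0.194 CPM at 0h. Together with Slc16a3 these were the 5 genes with at most 0.5 CPM in both 0h libraries and at least 5 CPM in both 6h libraries.

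By transcripts gained, the leaders were genes that were already well read at 0h. Aldoa, an enzyme of glycolysis, had 1642 and 1846 CPM at 6h, against 298 and 324 CPM at 0h. Ago2, the slicing Argonaute of the microRNA machinery, had 1268 and 1274 CPM at 6h, against 337 and 282 CPM at 0h (log2 fold change 2.04 ± 0.16, adjusted p = 1.26e-06). Laptm5, a lysosomal membrane protein that lowers antigen receptor levels, had 1950.0 and 2101 CPM at 6h, against 939.7 and 1053 CPM at 0h. Satb1, a chromatin organiser, had 989 and 1050.5 CPM at 6h, against 258 and 253 CPM at 0h (log2 fold change 2.0 ± 0.19, adjusted p = 7.53e-06). Dennd4a, Srrm2, Ldha, Pou2af1, Iqgap1 and the X-inactivation RNA Xist made up the rest of the 10 largest gains. Srrm2, a splicing protein, had 1894 and 1583 CPM at 6h, against 959.7 and 829 CPM at 0h (log2 fold change 0.96 ± 0.26, adjusted p = 0.0106, but 0.0725 to 0.0816 on leaving out wt 0h replicate 2 or wt 6h replicate 1). Xist measured 1874 and 1429 CPM at 6h, against 688 and 548 CPM at 0h (log2 fold change 1.42 ± 0.44, adjusted p = 0.0246, but 0.0766 to 0.141 on leaving out either wt 0h library or wt 6h replicate 1).

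**Figure D2:**
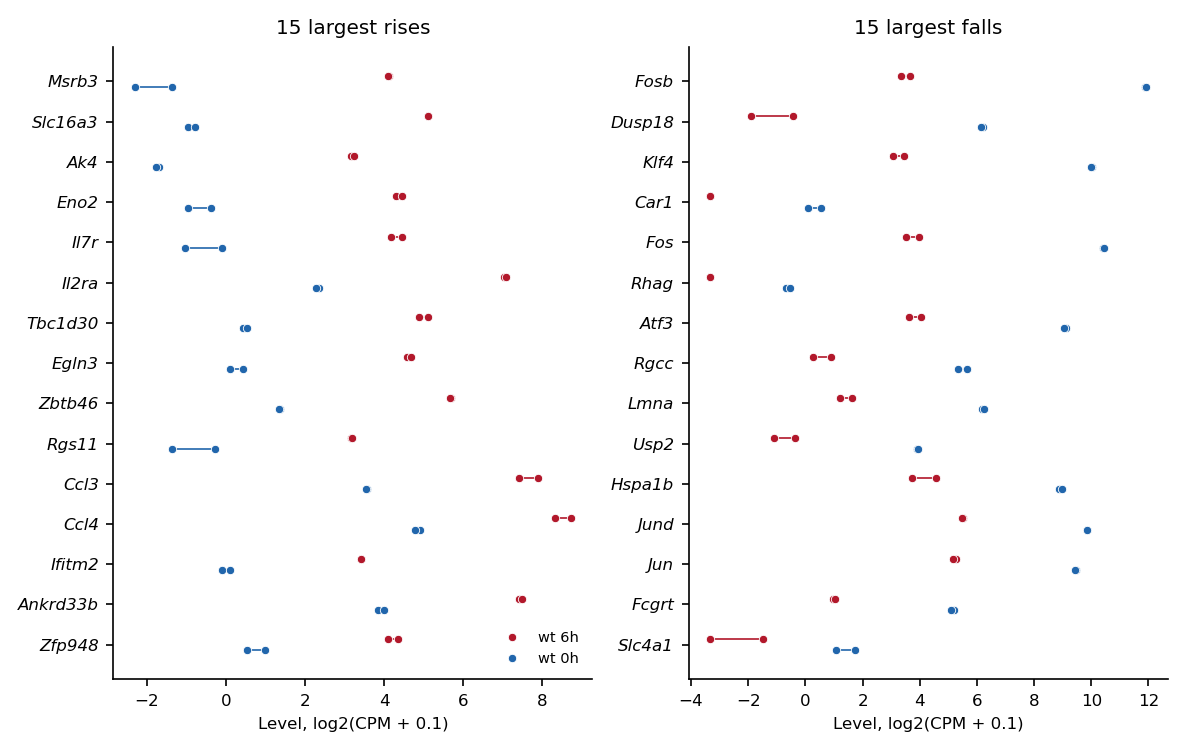
The 15 largest rises (left) and 15 largest falls (right) among called genes whose average log2 CPM is 3 or more, with level as log2(CPM + 0.1) on the x axis and 1 point for each library, red for wt 6h and blue for wt 0h. The points of the 2 times do not overlap in any of the 30 genes, which were chosen by the size of this change. The average is over all 14 libraries, and Car1, among the falls, had 0 and 0 counts at 6h, against 13 and 10 counts at 0h.

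Of the BAFF receptors, the transcript of BAFF-R rose slightly and that of TACI fell. Tnfrsf13c had 260.1 and 291 CPM at 6h, against 211 and 218 CPM at 0h (log2 fold change 0.36 ± 0.12, adjusted p = 0.0216, but 0.0801 to 0.173 on leaving out either wt 0h library or wt 6h replicate 2). Tnfrsf13b had 117 and 115 CPM at 6h, against 232 and 227 CPM at 0h (log2 fold change -0.98 ± 0.13, adjusted p = 9.19e-05). Per kilobase of annotated exon, all exons of a gene joined, the mean level of Tnfrsf13c was 135 CPM at 6h and 105 CPM at 0h. That of Tnfrsf13b was 40.9 CPM at 6h and 80.9 CPM at 0h, so on this scale TACI stood further below BAFF-R at 6h. In CPM alone TACI lay above BAFF-R at 0h and below it at 6h. Tnfrsf17 had 1 and 0 counts at 6h, against 0 and 2 counts at 0h. The ligand gene Tnfsf13b had 3 and 0 counts at 6h, against 1 and 0 counts at 0h, and Tnfsf13, the gene of the related ligand APRIL, had 0 counts in the 4 libraries.

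Downstream of the receptors, 3 of the 18 genes of TRAFs, IAPs, kinases and deubiquitinases rose and 5 fell, with a median of -0.14. Traf1, an adaptor that is itself an NF-kB target, had 242 and 249.8 CPM at 6h, against 98.4 and 103 CPM at 0h (log2 fold change 1.29 ± 0.13, adjusted p = 1.06e-05). Traf3, the adaptor that restrains NIK, had 143 and 133 CPM at 6h, against 240.4 and 233 CPM at 0h (log2 fold change -0.78 ± 0.13, adjusted p = 0.000401). Traf5 fell as well, with 43.01 and 46.6 CPM at 6h, against 125 and 125 CPM at 0h (log2 fold change -1.48 ± 0.14, adjusted p = 6.11e-06). The transcript of NIK did not pass the test, with 78.4 and 80.3 CPM at 6h, against 109 and 103 CPM at 0h, nor did those of Traf2 and Birc3. Tnfaip3, which encodes A20, a deubiquitinase that limits the classical pathway, had 382 and 431 CPM at 6h, against 1612 and 1575 CPM at 0h (log2 fold change -1.97 ± 0.28, adjusted p = 0.00019).

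Of the 5 NF-kB subunit genes, the genes of the 2 precursor subunits and Relb rose and the other two did not pass the test. Nfkb2, which encodes p100, had 547 and 533 CPM at 6h, against 326 and 345 CPM at 0h (log2 fold change 0.69 ± 0.16, adjusted p = 0.00355). Nfkb1, which encodes p105, had 650.1 and 679.8 CPM at 6h, against 409 and 421 CPM at 0h (log2 fold change 0.68 ± 0.15, adjusted p = 0.00302). Relb had 149.5 and 164 CPM at 6h, against 115 and 117 CPM at 0h, a smaller rise (log2 fold change 0.43 ± 0.14, adjusted p = 0.0216, but 0.0926 to 0.139 on leaving out either wt 0h library or wt 6h replicate 2). Rel had 672 and 683 CPM at 6h, against 633 and 621 CPM at 0h and Rela had 198 and 211 CPM at 6h, against 183 and 199 CPM at 0h, with overlap between the times for Rela. Per kilobase of exon at 6h, the levels were 118 CPM for Nfkb2, 90.8 CPM for Rel, 66.4 CPM for Rela, 55.1 CPM for Nfkb1 and 40.4 CPM for Relb. The length counts every annotated exon of a gene, 12.06 kb for Nfkb1 and 3.07 kb for Rela, and not the transcripts read. The order depends on it, and in CPM alone Nfkb1 lay above Rela.

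Among the 6 inhibitor genes of the IkB family, Nfkbiz, a nuclear IkB that can also activate genes, was the one that rose. It had 209 and 266 CPM at 6h, against 102 and 107 CPM at 0h (log2 fold change 1.19 ± 0.24, adjusted p = 0.00195). Nfkbia, the main cytoplasmic inhibitor, had 339 and 385 CPM at 6h, against 524 and 534 CPM at 0h (log2 fold change -0.55 ± 0.2, adjusted p = 0.0435, but 0.0863 to 0.218 with any 1 library left out). Nfkbib fell, with 67.9 and 65.1 CPM at 6h, against 105 and 110.5 CPM at 0h (log2 fold change -0.7 ± 0.23, adjusted p = 0.0258, but 0.0756 to 0.116 with any 1 library left out). Nfkbid had 911 and 1129 CPM at 6h, against 513 and 568 CPM at 0h and did not pass the test (log2 fold change 0.92 ± 0.36, adjusted p = 0.057), with no overlap between the libraries. Nfkbie and Bcl3 did not pass it either, at 319 and 313 CPM at 6h, against 299 and 300.2 CPM at 0h for Nfkbie.

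The gene of the survival protein Bcl-xL carried the largest change of its family. Bcl2l1 had 62.8 and 72.4 CPM at 6h, against 10.5 and 9.68 CPM at 0h (log2 fold change 2.74 ± 0.18, adjusted p = 2.93e-07), on chromosome 2 at 152780668 to 152831728 of the GENCODE M21 annotation (GRCm38, minus strand). Bcl2, the family's founding member, went the other way with 55.9 and 50.3 CPM at 6h, against 144 and 134 CPM at 0h (log2 fold change -1.39 ± 0.19, adjusted p = 0.000117). Per kilobase of exon the level of Bcl2l1 was 14.7 CPM at 6h and 2.20 CPM at 0h, and that of Bcl2 was 5.80 CPM at 6h and 15.2 CPM at 0h, so the order of the pair was turned round. Mcl1, a short-lived survival protein, fell slightly, with 718 and 737 CPM at 6h, against 960.2 and 969 CPM at 0h (log2 fold change -0.41 ± 0.12, adjusted p = 0.0123, but 0.0587 to 0.0851 with any 1 library left out). Bcl2l2 (Bcl-w) and Cflar (c-FLIP, which blocks caspase-8) rose, with log2 fold changes of 0.9 and 0.59. Bcl2a1b (A1) had 12.1 and 13.6 CPM at 6h, against 8.34 and 8.33 CPM at 0h (log2 fold change 0.62 ± 0.22, adjusted p = 0.0335, but 0.0786 to 0.18 with any 1 library left out), and its reads could be split with near-identical copies. The PIM kinases, which phosphorylate the pro-apoptotic protein BAD, differed among themselves. Pim2 had 126 and 134 CPM at 6h, against 47.2 and 46.95 CPM at 0h (log2 fold change 1.46 ± 0.4, adjusted p = 0.0129, but 0.0577 to 0.0739 on leaving out either wt 0h library or wt 6h replicate 2). Pim1, with 334 and 399 CPM at 6h, against 493 and 493 CPM at 0h, did not pass the test. Pim3, with 104 and 117 CPM at 6h, against 139.5 and 148 CPM at 0h, did not pass it either. In all, 5 of the 11 survival genes rose and 2 fell, with a median of 0.33.

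Of 15 pro-apoptotic genes 3 rose and 4 fell, near the shares of all tested genes (22.6% higher and 23.5% lower). Bcl2l11, which encodes the BH3-only protein BIM, had 470.1 and 475 CPM at 6h, against 187 and 171 CPM at 0h (log2 fold change 1.4 ± 0.2, adjusted p = 0.000137). Bax, an effector that opens the mitochondrial membrane, had 133 and 151 CPM at 6h, against 79.8 and 74.3 CPM at 0h (log2 fold change 0.88 ± 0.15, adjusted p = 0.000531). The transcripts of the killer BIM and of its antagonist Bcl-xL were both higher at 6h.

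Among 22 cytokine receptor genes 7 rose and 6 fell, and the rises included the largest changes. Il6st, the gp130 chain shared by interleukin 6 family receptors, had 188 and 192 CPM at 6h, against 67.5 and 66.5 CPM at 0h, a rise (log2 fold change 1.51 ± 0.36, adjusted p = 0.0071, but 0.0506 without wt 0h replicate 2). Csf2rb, the shared chain of the interleukin 3, interleukin 5 and GM-CSF receptors, had 73.7 and 71.8 CPM at 6h, against 26.8 and 26.4 CPM at 0h (log2 fold change 1.45 ± 0.2, adjusted p = 0.000125). Il4ra, which senses interleukin 4, had 311 and 360.0 CPM at 6h, against 643 and 662 CPM at 0h (log2 fold change -0.96 ± 0.23, adjusted p = 0.00462). Il10ra fell by 1.11 ± 0.12 on the log2 scale. Of the signal transducers of these receptors, Stat5a had 141 and 136 CPM at 6h, against 42.3 and 44.05 CPM at 0h (log2 fold change 1.68 ± 0.18, adjusted p = 1.46e-05), and Stat3 had 508 and 572 CPM at 6h, against 241 and 241 CPM at 0h (log2 fold change 1.17 ± 0.21, adjusted p = 0.00065), with Stat5b and Stat6 at log2 fold changes of 0.71 and 0.81. The feedback inhibitor Socs3 had 15.01 and 13.6 CPM at 6h, against 75.97 and 74.3 CPM at 0h (log2 fold change -2.39 ± 0.21, adjusted p = 3.59e-06) and its relative Socs1 had 1.28 and 0.849 CPM at 6h, against 4.69 and 4.65 CPM at 0h (log2 fold change -2.13 ± 0.35, adjusted p = 0.000414). Over the 18 genes of this pathway, 5 rose and 4 fell.

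Secreted factors rose more often than they fell, 7 of 16 against 3. Adm, the gene of the vasoactive peptide adrenomedullin, had 80.995 and 98.8 CPM at 6h, against 8.75 and 9.29 CPM at 0h (log2 fold change 3.31 ± 0.49, adjusted p = 0.000452). Vegfa, the endothelial growth factor, had 122 and 130.3 CPM at 6h, against 34.2 and 37.9 CPM at 0h (log2 fold change 1.81 ± 0.26, adjusted p = 0.000257). Il12a, the p35 chain of interleukin 12 and interleukin 35, had 29.3 and 29.2 CPM at 6h, against 12.5 and 12.97 CPM at 0h (log2 fold change 1.2 ± 0.24, adjusted p = 0.00151). Csf1, the macrophage growth factor, had 21.4 and 23.4 CPM at 6h, against 9.59 and 9.78 CPM at 0h (log2 fold change 1.21 ± 0.26, adjusted p = 0.00254). Among 10 chemokines, Ccl3 and Ccl4 rose and Cxcl9, Cxcl10 and Cxcl16 fell. Cxcl10, an interferon-induced chemokine, had 0.0915 and 0.255 CPM at 6h, against 2.61 and 3.49 CPM at 0h (log2 fold change -4.03 ± 0.47, adjusted p = 2.95e-05).

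The promoter of Il2ra is shown because it carries a match to the NF-kB motif and its gene has one of the largest rises. The capitals mark 2 overlapping matches, in the 250 bases before the RefSeq start (GRCm38.p6, plus strand, written as chr2:11642542-11642791).
Il2ra promoter: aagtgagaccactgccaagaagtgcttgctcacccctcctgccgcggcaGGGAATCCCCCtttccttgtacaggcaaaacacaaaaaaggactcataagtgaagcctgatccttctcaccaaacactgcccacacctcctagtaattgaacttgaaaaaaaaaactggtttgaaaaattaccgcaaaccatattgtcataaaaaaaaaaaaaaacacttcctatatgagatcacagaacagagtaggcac
Matches to this motif (both strands, 250 bases before to 50 after each RefSeq start, any listed start counted) were found for 6.8% of the promoters of genes called higher past 2-fold, 6.6% of those called lower, 6.1% of all tested genes and 5.1% of all genes in the RefSeq table. The promoters of the genes that rose or fell most thus held the motif about as often as those of all tested genes.

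Genes of glucose use rose as a group. Of 23 tested genes of glucose transport and glycolysis 18 rose and 1 fell, 17 of the rises with any 1 library left out, and the median log2 fold change was 1.73. Hk2, which commits glucose to the cell, had 116 and 109.6 CPM at 6h, against 32.9 and 34.9 CPM at 0h (log2 fold change 1.73 ± 0.36, adjusted p = 0.00332). Pfkp, the platelet-type phosphofructokinase, had 474 and 481 CPM at 6h, against 80.8 and 72.7 CPM at 0h (log2 fold change 2.64 ± 0.17, adjusted p = 3e-07). Aldoc, a further aldolase, had 51.9 and 62.2 CPM at 6h, against 10.7 and 14.3 CPM at 0h (log2 fold change 2.18 ± 0.3, adjusted p = 0.00017). Tpi1 had 407 and 472 CPM at 6h, against 62.2 and 62.8 CPM at 0h, Pgk1 had 37.7 and 42.9 CPM at 6h, against 7.09 and 8.04 CPM at 0h and Eno1 had 319 and 339 CPM at 6h, against 48.8 and 55.7 CPM at 0h, each a later enzyme of the pathway. Pkm, the pyruvate kinase gene, had 784 and 851 CPM at 6h, against 225 and 243 CPM at 0h (log2 fold change 1.81 ± 0.31, adjusted p = 0.00071). Ldha, which makes lactate from pyruvate, had 881 and 957 CPM at 6h, against 234 and 244 CPM at 0h (log2 fold change 1.94 ± 0.32, adjusted p = 0.000665). The libraries of the 2 times did not overlap in any of these genes. Gapdh had 17.1 and 18.2 CPM at 6h, against 2.29 and 3.87 CPM at 0h, but many near-identical copies of Gapdh and Pgam1 lie in the mouse genome and the reads left for them are uncertain.

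Genes induced by low oxygen rose with them, 16 of 21 higher and 1 lower, median 1.81. Egln3, an oxygen-sensing prolyl hydroxylase, had 23.8 and 25.6 CPM at 6h, against 1.25 and 0.968 CPM at 0h (log2 fold change 4.47 ± 0.86, adjusted p = 0.00213). Bnip3, a mitophagy receptor, had 47.6 and 53.2 CPM at 6h, against 4.79 and 5.42 CPM at 0h (log2 fold change 3.3 ± 0.53, adjusted p = 0.000738). P4ha1, a collagen prolyl hydroxylase, had 158 and 187 CPM at 6h, against 29.3 and 27.6 CPM at 0h (log2 fold change 2.6 ± 0.51, adjusted p = 0.00249). Ero1l, an oxidase of the endoplasmic reticulum, had 198 and 217 CPM at 6h, against 29.7 and 33.3 CPM at 0h (log2 fold change 2.72 ± 0.28, adjusted p = 2.95e-05). Ddit4, an inhibitor of mTORC1, had 69.2 and 79.7 CPM at 6h, against 26.4 and 23.5 CPM at 0h (log2 fold change 1.58 ± 0.2, adjusted p = 6.7e-05). The labels give no oxygen level or cell density for the cultures, and the part of either was not tested.

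The promoter of Ldha is shown for the core of the hypoxia response element, which reads ACGTG. The gene has 2 listed starts, and the one shown was picked for its number of matches. The capitals mark 5 matches on both strands, joined into 3 stretches because the 6 bases CACGTG hold a match on each strand (GRCm38.p6, plus strand, chr7:46845554-46845803).
Ldha promoter: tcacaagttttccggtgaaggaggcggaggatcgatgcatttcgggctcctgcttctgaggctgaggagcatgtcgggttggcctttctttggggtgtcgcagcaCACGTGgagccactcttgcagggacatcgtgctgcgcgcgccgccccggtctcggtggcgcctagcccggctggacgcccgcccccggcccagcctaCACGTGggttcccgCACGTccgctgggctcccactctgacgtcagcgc
The core was found in the promoters of 63.6% of the glycolysis genes and 70.6% of the hypoxia genes that had a RefSeq promoter, against 29.7% of all tested genes and 21.8% of all genes. Among genes called past 2-fold it was found for 33.8% of those higher and 25.8% of those lower. Some lists with more falls than rises held it about as often, with 70.0% of glucocorticoid-responsive genes and 61.5% of clock genes. It was thus not particular to the lists that rose.

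Other central metabolism moved less. Of 23 genes of the tricarboxylic acid cycle 2 rose, 2 fell and 19 did not pass the test, with a median of -0.06. Of 36 nuclear genes of oxidative phosphorylation none rose and 12 fell, 3 of them with any 1 library left out, and the median was -0.2. Atp5c1, a subunit of ATP synthase, had 114 and 117 CPM at 6h, against 205 and 195 CPM at 0h (log2 fold change -0.79 ± 0.11, adjusted p = 0.000117). Mitochondrial import and ribosome genes rose, 15 of 31 higher and 1 lower, with Timm9, an import chaperone, at 22.9 and 22.2 CPM at 6h, against 9.9001 and 7.65 CPM at 0h (log2 fold change 1.36 ± 0.19, adjusted p = 0.000123). In the pentose phosphate pathway G6pdx, its entry enzyme, had 69.6 and 64.5 CPM at 6h, against 48.4 and 44.6 CPM at 0h (log2 fold change 0.53 ± 0.11, adjusted p = 0.00153), and 3 of 8 genes rose and 1 fell.

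Genes for loading and importing amino acids rose together. Of 22 cytosolic aminoacyl-tRNA synthetase genes, which charge tRNAs, 15 rose and 1 fell, with a median of 0.95. Cars (cysteine) had 195 and 190.1 CPM at 6h, against 38.4 and 41.05 CPM at 0h (log2 fold change 2.28 ± 0.13, adjusted p = 1.26e-07). Iars (isoleucine) had 371 and 381 CPM at 6h, against 94.7 and 91.5 CPM at 0h (log2 fold change 2.01 ± 0.13, adjusted p = 2.78e-07). Aars (alanine) had 378 and 370.3 CPM at 6h, against 109 and 119 CPM at 0h (log2 fold change 1.72 ± 0.15, adjusted p = 2.62e-06). Mars and Sars had log2 fold changes of 1.92 and 1.42. The libraries of the 2 times did not overlap in any of the 5. Of 15 carriers of amino acids and iron 9 rose and 2 fell. Slc7a1, a carrier of arginine and lysine, had 362 and 377 CPM at 6h, against 117 and 117 CPM at 0h (log2 fold change 1.66 ± 0.16, adjusted p = 5.55e-06). Slc7a5, the large neutral amino acid carrier, had 220.1 and 223 CPM at 6h, against 103 and 98.8 CPM at 0h (log2 fold change 1.13 ± 0.18, adjusted p = 0.00025). Slc1a4, a carrier of serine and alanine, had 18.9 and 15.5 CPM at 6h, against 1.25 and 1.74 CPM at 0h (log2 fold change 3.51 ± 0.51, adjusted p = 0.000209). Tfrc, the transferrin receptor, had 419 and 469 CPM at 6h, against 187 and 194 CPM at 0h (log2 fold change 1.22 ± 0.13, adjusted p = 1.69e-05).

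In serine and one-carbon metabolism, which feeds purine synthesis, 8 of 14 genes rose and none fell. Mthfd2, a mitochondrial folate enzyme, had 99.4 and 104 CPM at 6h, against 27.9 and 30.3 CPM at 0h (log2 fold change 1.8 ± 0.21, adjusted p = 4.19e-05). Shmt2, which splits serine in mitochondria, had 266 and 255 CPM at 6h, against 80.7 and 76.6 CPM at 0h (log2 fold change 1.73 ± 0.19, adjusted p = 2.39e-05). In nucleotide synthesis 10 of 23 rose and 1 fell, among them Cad, which starts pyrimidine synthesis, at 225 and 191 CPM at 6h, against 87.9 and 90.1 CPM at 0h (log2 fold change 1.22 ± 0.17, adjusted p = 0.000113).

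Targets of ATF4, the factor that answers amino acid shortage, and of the unfolded protein response were taken as one list. Of its 24 genes 6 rose and 14 fell, median -0.49. Trib3, an ATF4 target, had 17.6 and 14.5 CPM at 6h, against 2.29 and 2.42 CPM at 0h (log2 fold change 2.76 ± 0.22, adjusted p = 1.37e-06). Asns, asparagine synthetase, had 7.596 and 8.07 CPM at 6h, against 3.13 and 2.23 CPM at 0h (log2 fold change 1.55 ± 0.39, adjusted p = 0.00603, but 0.0622 without wt 0h replicate 2). Chac1, which degrades glutathione, had 2.01 and 2.802 CPM at 6h, against 0.417 and 0.678 CPM at 0h (log2 fold change 2.11 ± 0.46, adjusted p = 0.00241). Atf4 itself had 539.5 and 593 CPM at 6h, against 906 and 965 CPM at 0h (log2 fold change -0.72 ± 0.13, adjusted p = 0.000878). On the other side, Hspa5 (BiP), the chaperone of the endoplasmic reticulum, had 646 and 689.6 CPM at 6h, against 2525 and 2557 CPM at 0h (log2 fold change -1.93 ± 0.14, adjusted p = 9.13e-07). Dnajb9, a co-chaperone induced by unfolded proteins, had 35.97 and 42.04 CPM at 6h, against 372 and 361 CPM at 0h (log2 fold change -3.23 ± 0.24, adjusted p = 1.27e-06). Herpud1 fell by 1.1 ± 0.1 on the log2 scale.

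The promoter of Aars is shown for a match to TGATGNAA, the core of the elements that ATF4 binds; the capitals mark the 1 match, on the opposite strand (GRCm38.p6, plus strand, chr8:111033592-111033841).
Aars promoter: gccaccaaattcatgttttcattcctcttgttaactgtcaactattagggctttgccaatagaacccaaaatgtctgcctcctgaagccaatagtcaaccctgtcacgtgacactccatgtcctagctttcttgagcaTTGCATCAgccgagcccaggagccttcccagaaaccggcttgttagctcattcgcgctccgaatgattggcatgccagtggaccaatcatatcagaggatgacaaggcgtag
This motif was found in the promoters of 35.7% of the synthetase genes with a RefSeq promoter (5 of 14 genes), against 2.9% of all tested genes and 4.5% of all genes. It was also found for 18.2% of the ATF4 and unfolded protein list, in which more genes fell than rose. Among genes called past 2-fold it was found for 4.7% of those higher and 4.5% of those lower.

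Ribosome assembly genes and ribosomal protein genes moved in opposite directions. Of 50 ribosome biogenesis genes 38 rose and 1 fell, 23 of the rises with any 1 library left out, and the median was 0.69. Polr1b, a subunit of RNA polymerase I, had 171 and 169.6 CPM at 6h, against 43.98 and 44.4 CPM at 0h (log2 fold change 1.95 ± 0.22, adjusted p = 3.62e-05). Heatr1, needed for the transcription and processing of ribosomal RNA, had 408 and 376 CPM at 6h, against 131 and 123 CPM at 0h (log2 fold change 1.63 ± 0.18, adjusted p = 2.39e-05). Noc3l and Utp20, assembly factors of the large and the small subunit, had log2 fold changes of 1.28 and 1.38. Of 38 ribosomal protein genes 2 rose and 26 fell, median -0.57. Rps3 had 1528 and 1749.9 CPM at 6h, against 3391 and 2919 CPM at 0h (log2 fold change -0.94 ± 0.17, adjusted p = 0.000751) and Rps9 had 715 and 809 CPM at 6h, against 1472 and 1399 CPM at 0h (log2 fold change -0.91 ± 0.15, adjusted p = 0.000402). The summed level of the 38 was 14071 and 15809 CPM at 6h, against 25869.7 and 24141 CPM at 0h. Ribosomal protein genes have many near copies in the genome, and reads without a unique position were more frequent at 0h (shares above), so these levels are uncertain. The test called 21 of 67 small nucleolar RNA genes higher and none lower. With poly-dT-primed cDNA these reads may come from longer host transcripts, and the mature small RNAs were not measured. The host transcripts Snhg17 and Snhg20, named after their values were seen, rose. Snhg17 had 104 and 109 CPM at 6h, against 34.7 and 40.2 CPM at 0h, and Snhg20 had 19.04 and 20.9 CPM at 6h, against 7.09 and 6.49 CPM at 0h.

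Among translation factors 16 of 30 rose and 5 fell. Eif4g1, the scaffold of the cap-binding complex, had 889.8 and 869 CPM at 6h, against 406 and 401 CPM at 0h (log2 fold change 1.12 ± 0.16, adjusted p = 0.00013). Eif4ebp1, an inhibitor of cap binding, had 28.9 and 31.9 CPM at 6h, against 11.8 and 11.5 CPM at 0h (log2 fold change 1.38 ± 0.22, adjusted p = 0.000256). Myc, a driver of ribosome genes, did not pass the test, with 480.1 and 586 CPM at 6h, against 688 and 715 CPM at 0h (log2 fold change -0.4 ± 0.3, adjusted p = 0.312). Of its 11 network genes 1 rose and 5 fell. The one that rose was Mxi1, a MYC antagonist also on the hypoxia list, with 71.02 and 78.9 CPM at 6h, against 17.9 and 19.3 CPM at 0h (log2 fold change 2.01 ± 0.26, adjusted p = 0.000104). The further antagonists Mxd4 and Mxd1 fell. Mxd4 had 52.99 and 48.7 CPM at 6h, against 157 and 154 CPM at 0h, and Mxd1 had 36.7 and 41.4 CPM at 6h, against 95.1 and 102 CPM at 0h. Mnt and Mlx fell too, with log2 fold changes of -0.68 and -0.74, and Mycl, a MYC relative, had 0.275 and 0.0849 CPM at 6h, against 3.54 and 2.61 CPM at 0h. The genes Max, Mga, Mlxip and Mxd3 did not pass the test.

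Cholesterol synthesis genes rose in most cases, and 12 of 22 fatty acid genes rose. Of 24 cholesterol synthesis genes 20 rose and 1 fell, with a median of 0.97. Lss, lanosterol synthase, had 141 and 121 CPM at 6h, against 25.5 and 25.4 CPM at 0h (log2 fold change 2.36 ± 0.18, adjusted p = 1.15e-06). Fdps had 56.7 and 51.3 CPM at 6h, against 14.1 and 13.7 CPM at 0h (log2 fold change 1.96 ± 0.2, adjusted p = 1.34e-05) and Sqle, squalene epoxidase, had 175 and 167 CPM at 6h, against 44.6 and 53.1 CPM at 0h (log2 fold change 1.81 ± 0.19, adjusted p = 1.57e-05). Insig1, which holds the pathway's activator SREBP in the endoplasmic reticulum, was the gene that fell, with 159.6 and 152 CPM at 6h, against 227 and 232 CPM at 0h (log2 fold change -0.56 ± 0.11, adjusted p = 0.00111). Of 22 genes of fatty acid synthesis and uptake 12 rose, 4 fell and 6 did not pass the test, with a median of 0.71, and past 2-fold 2 were higher and 2 lower. Fatty acid synthase, Fasn, had 612 and 514 CPM at 6h, against 205 and 193 CPM at 0h (log2 fold change 1.5 ± 0.15, adjusted p = 8.32e-06). Cpt1a, which takes fatty acids into mitochondria for burning, had 52.6 and 49.3 CPM at 6h, against 165 and 158 CPM at 0h (log2 fold change -1.67 ± 0.11, adjusted p = 3.02e-07). Genes of sterol efflux and other LXR targets went both ways, 4 of 10 higher and 3 lower, with a median of 0.02. Of these Abcg1, a sterol exporter, had 37.4 and 35.2 CPM at 6h, against 94.8 and 95.9 CPM at 0h (log2 fold change -1.39 ± 0.2, adjusted p = 0.000129).

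NRF2 target genes of antioxidant defence were split, with 8 of 20 higher and 4 lower. Gclc and Gclm are the subunits of the enzyme that starts glutathione synthesis. Gclc had 262 and 256 CPM at 6h, against 52.4 and 55.96 CPM at 0h (log2 fold change 2.26 ± 0.16, adjusted p = 6.36e-07), and Gclm had 33.9 and 31.1 CPM at 6h, against 10.7 and 10.8 CPM at 0h (log2 fold change 1.59 ± 0.24, adjusted p = 0.000251). Txnrd1, thioredoxin reductase, had 197 and 192 CPM at 6h, against 80.5 and 82.4 CPM at 0h (log2 fold change 1.26 ± 0.2, adjusted p = 0.000303). Gpx1, the selenium-dependent peroxidase, fell, with 72.4 and 76.3 CPM at 6h, against 202 and 194 CPM at 0h (log2 fold change -1.41 ± 0.2, adjusted p = 0.00016). Of 32 proteasome subunits 16 rose and 3 fell, with Psmd11, a lid subunit, at 183 and 205 CPM at 6h, against 69.1 and 74.5 CPM at 0h (log2 fold change 1.43 ± 0.13, adjusted p = 3.66e-06).

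The primary transcripts of several microRNAs rose. They were picked after their values were seen, from the 4 tested genes named as microRNA hosts. Mir155hg (chromosome 16), host of miR-155, which B cells are known to induce on activation, had 50.6 and 54.4 CPM at 6h, against 5.42 and 6.196 CPM at 0h (log2 fold change 3.17 ± 0.24, adjusted p = 9.78e-07). Mir17hg (chromosome 14), which carries the miR-17-92 cluster that restrains BIM, had 75.3 and 75.6 CPM at 6h, against 13.1 and 17.04 CPM at 0h (log2 fold change 2.32 ± 0.27, adjusted p = 4.89e-05). Mir142hg (chromosome 11), host of the blood-cell microRNA miR-142, had 43.01 and 36.4 CPM at 6h, against 8.75 and 11.7 CPM at 0h (log2 fold change 1.95 ± 0.25, adjusted p = 7.12e-05). The fourth, Mir22hg, had 27.9 and 23.3 CPM at 6h, against 28.97 and 32.6 CPM at 0h and did not pass the test. The libraries were made from poly-dT-primed cDNA, so the mature microRNAs themselves were not measured. Their RefSeq sequences (GRCm38.p6) are given because they say which products the 3 transcripts carry, with the seed, bases 2 to 8, in capitals.
mmu-miR-155-5p: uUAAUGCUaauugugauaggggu
mmu-miR-142a-5p: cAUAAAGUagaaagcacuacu
mmu-miR-142a-3p: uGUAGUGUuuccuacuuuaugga
mmu-miR-17-5p: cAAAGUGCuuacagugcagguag
mmu-miR-20a-5p: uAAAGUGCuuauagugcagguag
mmu-miR-18a-5p: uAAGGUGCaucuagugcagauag
mmu-miR-19a-3p: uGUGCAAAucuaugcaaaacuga
mmu-miR-19b-3p: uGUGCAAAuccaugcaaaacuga
mmu-miR-92a-3p: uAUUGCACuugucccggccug
In this set miR-17-5p and miR-20a-5p share one seed, and miR-19a-3p and miR-19b-3p share another, while the others differ. All lie within the annotated span of their host gene.

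Immediate early and stress genes that were very high at 0h were among the largest falls. Fosb, a partner in the AP-1 factor, had 10.2 and 12.5 CPM at 6h, against 3770.1 and 3834 CPM at 0h (log2 fold change -8.39 ± 0.4, adjusted p = 1.08e-07). Fos had 11.3 and 15.6 CPM at 6h, against 1357 and 1389 CPM at 0h (log2 fold change -6.67 ± 0.51, adjusted p = 6.43e-06). Jun had 38.1 and 35.3 CPM at 6h, against 702 and 683 CPM at 0h (log2 fold change -4.24 ± 0.21, adjusted p = 6.14e-08), and Jund had 45.5 and 44.7 CPM at 6h, against 924 and 922 CPM at 0h (log2 fold change -4.36 ± 0.45, adjusted p = 4.61e-05). Atf3, a stress-induced repressor, had 12.3 and 16.5 CPM at 6h, against 550.2 and 532 CPM at 0h (log2 fold change -5.23 ± 0.17, adjusted p = 3.62e-09). Over the 22 genes of AP-1, EGR and NR4A, 16 fell and none rose, and their summed level was 2371 and 2928 CPM at 6h, against 14777 and 14953 CPM at 0h. Nr4a1, which antigen receptor signalling induces, had 1094 and 1427 CPM at 6h, against 3639.8 and 3711 CPM at 0h (log2 fold change -1.54 ± 0.46, adjusted p = 0.0193, but 0.0618 to 0.126 with any 1 library left out). Egr3, a gene of the same early class, had 102 and 116 CPM at 6h, against 291 and 292 CPM at 0h (log2 fold change -1.42 ± 0.15, adjusted p = 1.5e-05).

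Of 14 genes on the list of DUSP phosphatases and Sprouty (SPRY) genes 8 fell and none rose. Many DUSP proteins are MAP kinase phosphatases, which switch off the kinases upstream of AP-1. Dusp18 had 0.641 and 0.1698 CPM at 6h, against 74.2 and 71.1 CPM at 0h (log2 fold change -7.47 ± 0.38, adjusted p = 9.59e-08). Dusp1 had 28.6 and 33.9 CPM at 6h, against 446 and 469.8 CPM at 0h (log2 fold change -3.87 ± 0.13, adjusted p = 3.62e-09) and Dusp10 had 15.1 and 19.02 CPM at 6h, against 187 and 195 CPM at 0h (log2 fold change -3.48 ± 0.14, adjusted p = 2.31e-08). KLF factors fell in 8 of 11 cases, and none rose. Klf4 had 8.24 and 10.9 CPM at 6h, against 1039.5 and 1026 CPM at 0h (log2 fold change -6.75 ± 0.4, adjusted p = 6.68e-07). Klf2, which keeps lymphocytes resting and circulating, had 77.3 and 99.02 CPM at 6h, against 829 and 869 CPM at 0h (log2 fold change -3.27 ± 0.19, adjusted p = 1.97e-07). Klf6 fell by 2.82 ± 0.16 on the log2 scale. Of 17 mRNA decay and RNA-binding regulators 4 rose and 7 fell, with a median of -0.03. One that fell, Zfp36 (tristetraprolin), which destroys cytokine mRNAs, had 341 and 400.5 CPM at 6h, against 1246 and 1282 CPM at 0h (log2 fold change -1.77 ± 0.24, adjusted p = 0.000107). Other genes among the 15 largest falls were Rgcc, Lmna, Usp2 and Fcgrt, with log2 fold changes between -4.99 and -4.21. Car1 was among the 15 too, but its average level over the 14 libraries came mostly from other groups. It had 0 and 0 CPM at 6h, against 1.35 and 0.968 CPM at 0h (log2 fold change -6.7 ± 1.76, adjusted p = 0.0105).

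Heat shock chaperones fell in 17 of 19 cases and rose in 1, median -1.93. Hspa1b, an inducible HSP70, had 13.1 and 23.6 CPM at 6h, against 471 and 506 CPM at 0h (log2 fold change -4.73 ± 0.6, adjusted p = 0.000181), and its reads could be split with its near copy Hspa1a. Dnajb4 had 20.7 and 24.3 CPM at 6h, against 313 and 318 CPM at 0h (log2 fold change -3.81 ± 0.18, adjusted p = 4.47e-08) and Dnajb1 had 70.8 and 75.6 CPM at 6h, against 622 and 614 CPM at 0h (log2 fold change -3.08 ± 0.16, adjusted p = 9.59e-08), both HSP40 co-chaperones. Hsph1, an exchange factor of HSP70, had 159 and 179 CPM at 6h, against 1054 and 1149 CPM at 0h (log2 fold change -2.7 ± 0.17, adjusted p = 2.44e-07). Hsp90aa1 fell by 2.17 ± 0.14 on the log2 scale. The heat shock element (TTC, GAA and TTC, each 2 bases apart, searched on both strands) was found in 4 of 15 of their promoters (26.7%), against 0.6% of all tested genes. Glucocorticoid-responsive genes fell in 8 of 10 cases, among them Tsc22d3 (GILZ), at 167 and 194 CPM at 6h, against 1340.2 and 1385 CPM at 0h (log2 fold change -2.92 ± 0.18, adjusted p = 2.4e-07), and Per1, also a clock gene, at 257 and 310.4 CPM at 6h, against 984 and 999 CPM at 0h (log2 fold change -1.8 ± 0.24, adjusted p = 0.000109). The labels do not say how long the isolation of the cells took, and the part of the isolation in the 0h levels was not tested.

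On the list of FOXO targets and of genes that hold lymphocytes in quiescence 12 of 24 fell and 5 rose, the rises led by Il7r, and 7 did not pass the test. Btg2, which slows the cell cycle, had 267 and 281 CPM at 6h, against 1503 and 1520.5 CPM at 0h (log2 fold change -2.47 ± 0.21, adjusted p = 2.44e-06). Of the same family, Tob1 had 15.8 and 15.8 CPM at 6h, against 96.8 and 101 CPM at 0h (log2 fold change -2.64 ± 0.16, adjusted p = 2.44e-07), and Tob2 had 175 and 193 CPM at 6h, against 775 and 763 CPM at 0h (log2 fold change -2.06 ± 0.24, adjusted p = 3.54e-05). Txnip, which holds back glucose uptake, had 244 and 253 CPM at 6h, against 784 and 810.2 CPM at 0h (log2 fold change -1.68 ± 0.11, adjusted p = 2.76e-07). Sesn3, a nutrient sensor, had 42.6 and 37.1 CPM at 6h, against 128 and 121 CPM at 0h (log2 fold change -1.64 ± 0.17, adjusted p = 1.08e-05). Foxo1 itself had 281 and 281 CPM at 6h, against 422 and 406 CPM at 0h (log2 fold change -0.56 ± 0.18, adjusted p = 0.0249, but 0.0771 to 0.106 with any 1 library left out).

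Genes of DNA replication and mitosis did not rise as groups. Of 36 DNA replication genes 1 rose and 11 fell, with Pcna, the replication clamp, at 74.95 and 74.4 CPM at 6h, against 186 and 188 CPM at 0h (log2 fold change -1.32 ± 0.14, adjusted p = 1.69e-05). Of 28 mitosis genes none rose and 2 fell, among them Cdc25b at 56.4 and 53.7 CPM at 6h, against 115 and 113 CPM at 0h (log2 fold change -1.05 ± 0.11, adjusted p = 1.12e-05). Among 20 genes of G1 control 2 rose and 4 fell. Cdk6 had 49.5 and 51.7 CPM at 6h, against 18.4 and 18.01 CPM at 0h (log2 fold change 1.47 ± 0.14, adjusted p = 5.57e-06) and Cdk4 had 229 and 227 CPM at 6h, against 153 and 146 CPM at 0h (log2 fold change 0.61 ± 0.15, adjusted p = 0.00475), both kinases that open the way to S phase. Cdkn2d, an inhibitor of these 2 kinases, had 9.52 and 10.3 CPM at 6h, against 39.9 and 44.1 CPM at 0h (log2 fold change -2.08 ± 0.21, adjusted p = 9.89e-06). Ccnd1 had 0.275 and 0.3397 CPM at 6h, against 4.79 and 4.74 CPM at 0h (log2 fold change -3.9 ± 0.42, adjusted p = 1.81e-05), at low levels.

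**Figure D3:**
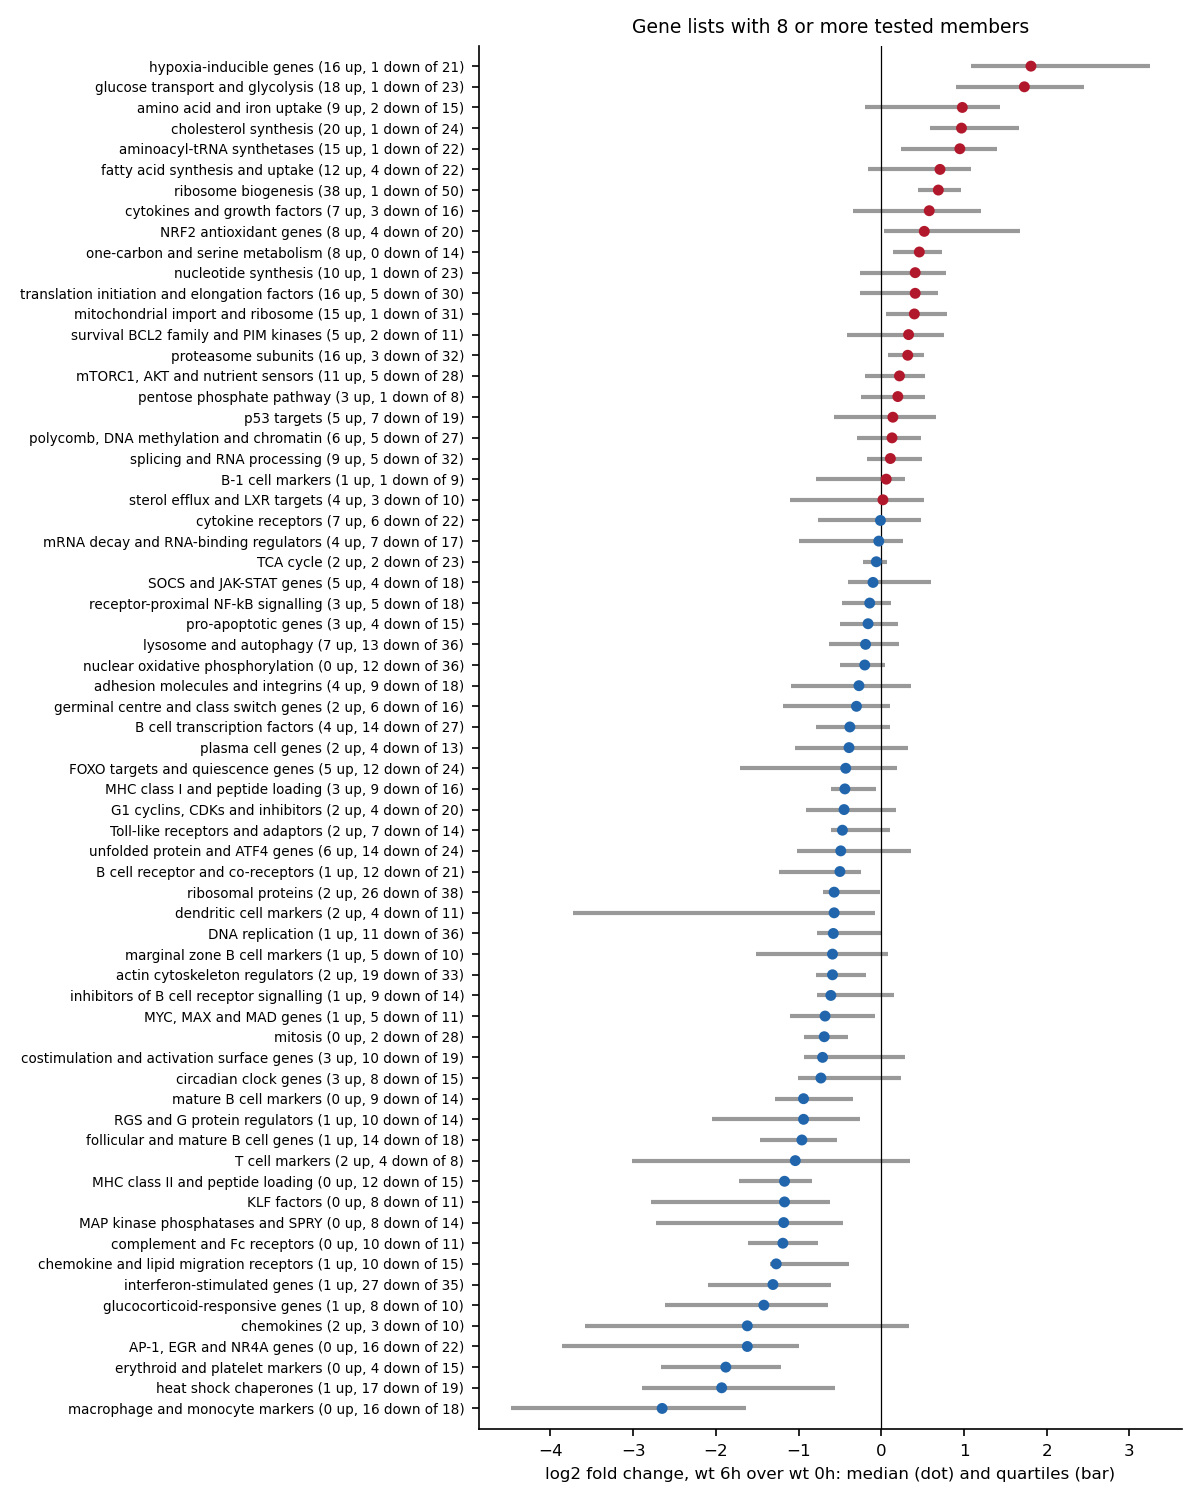
Median (dot) and quartiles (bar) of the log2 fold change at 6h over 0h for gene lists with 8 or more tested members, with the numbers of called members in the labels. Hypoxia and glycolysis genes lie highest with medians of 1.81 and 1.73, and macrophage markers, heat shock chaperones, erythroid and platelet markers, AP-1 genes and chemokines lie at the low end with -2.65, -1.93, -1.88, -1.62 and -1.62. The summed level of the chemokine list went the other way, with 502 and 666 CPM at 6h, against 64.4 and 57.7 CPM at 0h. Most of that sum is Ccl3 and Ccl4.

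Of further lists, clock genes, follicular B cell genes and marginal zone markers leaned to falls and mTORC1 genes to rises. The others given here lay nearer the background or moved both ways. Of 18 follicular and mature B cell genes 1 rose and 14 fell, with a median of -0.96. Of 10 marginal zone B cell markers 1 rose and 5 fell, with a median of -0.59. Of 15 clock genes 3 rose and 8 fell, with a median of -0.73. Of 19 p53 targets 5 rose and 7 fell, and of 36 lysosome and autophagy genes 7 rose and 13 fell. Splicing genes rose in 9 of 32 cases and fell in 5. Chromatin regulators rose in 6 of 27 cases and fell in 5. Of 28 genes of mTORC1, AKT and nutrient sensing 11 rose and 5 fell, with a median of 0.22.

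Genes of the B cell receptor fell more often than they rose. Of 21 genes of the B cell receptor and its co-receptors 12 fell and 1 rose, median -0.5. Cd79a, a signalling chain of the receptor, had 647 and 671 CPM at 6h, against 1654 and 1719 CPM at 0h (log2 fold change -1.36 ± 0.16, adjusted p = 3.81e-05). Syk, the first kinase of the pathway, had 762 and 744 CPM at 6h, against 1497 and 1503 CPM at 0h (log2 fold change -0.99 ± 0.16, adjusted p = 0.000258), and Btk had 336 and 336 CPM at 6h, against 312 and 305 CPM at 0h and did not pass the test. Inhibitors of the same receptor fell too, 9 of 14 against 1 rise. Cd22, an inhibitory lectin, had 697 and 664 CPM at 6h, against 1966 and 1966 CPM at 0h (log2 fold change -1.53 ± 0.24, adjusted p = 0.000267), and Ptpn6 (SHP-1) fell by 0.83 ± 0.14 on the log2 scale. Ptpn22, a phosphatase, rose, with 145 and 143 CPM at 6h, against 67.5 and 68.9 CPM at 0h (log2 fold change 1.08 ± 0.1, adjusted p = 4.66e-06). Of 171 immunoglobulin variable genes 79 fell and none rose, and Igkc, the kappa constant gene, had 1716 and 1848 CPM at 6h, against 3649.6 and 3802 CPM at 0h (log2 fold change -1.06 ± 0.23, adjusted p = 0.00227).

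MHC class II presentation fell in 12 of 15 cases with no rise, median -1.17. H2-Aa had 3691 and 4156 CPM at 6h, against 8449 and 8771 CPM at 0h (log2 fold change -1.13 ± 0.2, adjusted p = 0.000586). H2-Ab1 had 1695 and 1833 CPM at 6h, against 5648 and 5576 CPM at 0h (log2 fold change -1.67 ± 0.2, adjusted p = 3.59e-05). H2-Oa, which restrains peptide loading, had 68.8 and 75.2 CPM at 6h, against 407 and 412 CPM at 0h (log2 fold change -2.51 ± 0.19, adjusted p = 9.5e-07). The summed level of the list was 16285 and 17957 CPM at 6h, against 41103 and 43485 CPM at 0h. MHC class I genes fell in 9 of 16 cases and rose in 3, with Psmb10, an immunoproteasome subunit, at 38.6 and 38.98 CPM at 6h, against 79.9 and 84.8 CPM at 0h (log2 fold change -1.09 ± 0.16, adjusted p = 0.00015), and reads of the H2 genes may be split between near copies. Complement and Fc receptors fell in 10 of 11 cases. Cd55, which protects cells from complement, had 208 and 203 CPM at 6h, against 792 and 795 CPM at 0h (log2 fold change -1.95 ± 0.15, adjusted p = 1.29e-06). Fcer2a (CD23), a marker of follicular B cells, had 552 and 515 CPM at 6h, against 1192 and 1251 CPM at 0h (log2 fold change -1.19 ± 0.17, adjusted p = 0.000115).

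Surface genes of activation fell more often than they rose, 3 of 19 higher and 10 lower, with a median of -0.71. Cd86, a ligand that costimulates T cells, had 293 and 319 CPM at 6h, against 64.6 and 61.7 CPM at 0h (log2 fold change 2.28 ± 0.25, adjusted p = 3.02e-05). Cd69, an early activation antigen that holds cells in tissue, had 130.0 and 159 CPM at 6h, against 1331 and 1359.5 CPM at 0h (log2 fold change -3.22 ± 0.29, adjusted p = 8.19e-06). Cd83 had 1145 and 1373 CPM at 6h, against 3766 and 3673 CPM at 0h (log2 fold change -1.56 ± 0.2, adjusted p = 5.43e-05). Slamf1 had 9.88 and 9.94 CPM at 6h, against 62.5 and 62.2 CPM at 0h (log2 fold change -2.65 ± 0.15, adjusted p = 1.26e-07). Tnfrsf9 (4-1BB) rose but at low levels, with 1.83 and 2.72 CPM at 6h, against 0.208 and 0.194 CPM at 0h (log2 fold change 3.43 ± 0.61, adjusted p = 0.000626).

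Receptors that steer B cells fell, 10 of 15 against 1 rise, median -1.27. Cxcr5, the receptor that leads B cells to follicles, had 480.0 and 484 CPM at 6h, against 1583 and 1589 CPM at 0h (log2 fold change -1.72 ± 0.26, adjusted p = 0.000232). Ccr7 had 1320.3 and 1481 CPM at 6h, against 3358 and 3399 CPM at 0h (log2 fold change -1.27 ± 0.27, adjusted p = 0.0026) and Cxcr4 had 945 and 1137 CPM at 6h, against 2645 and 2664 CPM at 0h (log2 fold change -1.35 ± 0.26, adjusted p = 0.00111). S1pr1, which lets lymphocytes leave tissue, had 334 and 366 CPM at 6h, against 1243 and 1266 CPM at 0h (log2 fold change -1.84 ± 0.18, adjusted p = 6.62e-06). Ccr9, the gut-homing receptor, was the one that rose, with 17.2 and 18.7 CPM at 6h, against 1.35 and 1.84 CPM at 0h (log2 fold change 3.48 ± 0.22, adjusted p = 2.58e-07). Regulators of G protein signalling, which dampen such receptors, fell in 10 of 14 cases, with Rgs2 at 144 and 176 CPM at 6h, against 901 and 898 CPM at 0h (log2 fold change -2.49 ± 0.22, adjusted p = 3.59e-06) and Rgs1 at 16.7 and 26.3 CPM at 6h, against 164 and 168 CPM at 0h (log2 fold change -2.95 ± 0.37, adjusted p = 0.000144). Of adhesion molecules 9 of 18 fell and 4 rose. Among them Itgb7 had 22.3 and 26.8 CPM at 6h, against 185 and 193 CPM at 0h (log2 fold change -2.94 ± 0.18, adjusted p = 2.4e-07). Actin regulators fell in 19 of 33 cases, with Rhob at 32.3 and 36.01 CPM at 6h, against 303 and 297 CPM at 0h (log2 fold change -3.13 ± 0.17, adjusted p = 1.06e-07), while Marcks, which binds actin at the membrane, had 220.1 and 220.0 CPM at 6h, against 65.1 and 65.5 CPM at 0h (log2 fold change 1.75 ± 0.13, adjusted p = 9.5e-07).

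Among 27 B cell transcription factors 14 fell and 4 rose. Pax5, which holds B cell identity, had 124 and 128 CPM at 6h, against 294 and 278 CPM at 0h (log2 fold change -1.18 ± 0.12, adjusted p = 8.53e-06). Bcl11a had 71.5 and 74.99 CPM at 6h, against 335 and 342 CPM at 0h (log2 fold change -2.21 ± 0.16, adjusted p = 9.13e-07). Irf4 had 1220.1 and 1302 CPM at 6h, against 2621 and 2568 CPM at 0h (log2 fold change -1.04 ± 0.17, adjusted p = 0.000438). Bcl6, the germinal centre factor, fell by 0.81 ± 0.1 on the log2 scale. Pou2af1 (OCA-B), an octamer coactivator, had 1207 and 1193 CPM at 6h, against 528 and 539 CPM at 0h (log2 fold change 1.17 ± 0.12, adjusted p = 1.14e-05). Myb had 88.6 and 79.8 CPM at 6h, against 26.7 and 24.3 CPM at 0h (log2 fold change 1.72 ± 0.13, adjusted p = 1.11e-06). Prdm1 (Blimp-1), the repressor that drives plasma cell formation, had 52.4 and 49.9 CPM at 6h, against 16.5 and 16.9 CPM at 0h (log2 fold change 1.61 ± 0.26, adjusted p = 0.000374), while Xbp1 had 94.5 and 106 CPM at 6h, against 133 and 131 CPM at 0h (log2 fold change -0.39 ± 0.11, adjusted p = 0.0097, but 0.0503 to 0.113 on leaving out either wt 0h library or wt 6h replicate 1), and 2 of 13 plasma cell genes rose and 4 fell.

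Interferon-stimulated genes fell in 27 of 35 cases and rose in 1, with a median of -1.31, and 18 of the falls held with any 1 library left out. Irf7, which amplifies interferon production, had 9.43 and 8.83 CPM at 6h, against 57.5 and 57.8 CPM at 0h (log2 fold change -2.66 ± 0.21, adjusted p = 1.26e-06). Isg15, a ubiquitin-like modifier, had 2.38 and 2.21 CPM at 6h, against 12.8 and 12.2 CPM at 0h (log2 fold change -2.44 ± 0.3, adjusted p = 4.6e-05). Zbp1, a sensor of nucleic acids, had 7.69 and 9.09 CPM at 6h, against 42.3 and 45.6 CPM at 0h (log2 fold change -2.39 ± 0.28, adjusted p = 3.68e-05). Among Toll-like receptor genes 7 of 14 fell and 2 rose. Tlr7 had 46.8 and 42.04 CPM at 6h, against 82.4 and 79.96 CPM at 0h (log2 fold change -0.87 ± 0.2, adjusted p = 0.0037), Cd180 had 179 and 160.5 CPM at 6h, against 619 and 619 CPM at 0h (log2 fold change -1.87 ± 0.14, adjusted p = 8.18e-07) and Tlr9 had 163 and 139 CPM at 6h, against 167 and 138 CPM at 0h and did not pass the test.

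The promoter of Isg15 is shown for the interferon response element, searched on both strands as GAAA followed after 2 bases by GAAA. The capitals mark 3 overlapping matches (GRCm38.p6, minus strand, chr4:156200819-156201068).
Isg15 promoter: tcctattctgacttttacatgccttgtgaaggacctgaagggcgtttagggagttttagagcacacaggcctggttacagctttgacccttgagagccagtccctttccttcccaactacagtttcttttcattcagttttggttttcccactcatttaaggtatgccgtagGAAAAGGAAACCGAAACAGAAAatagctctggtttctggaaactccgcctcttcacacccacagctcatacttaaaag
The element was found in the promoters of 57.7% of the interferon-stimulated genes with a RefSeq promoter (26 genes), against 3.9% of all tested genes and 4.0% of all genes.

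**Figure D4:**
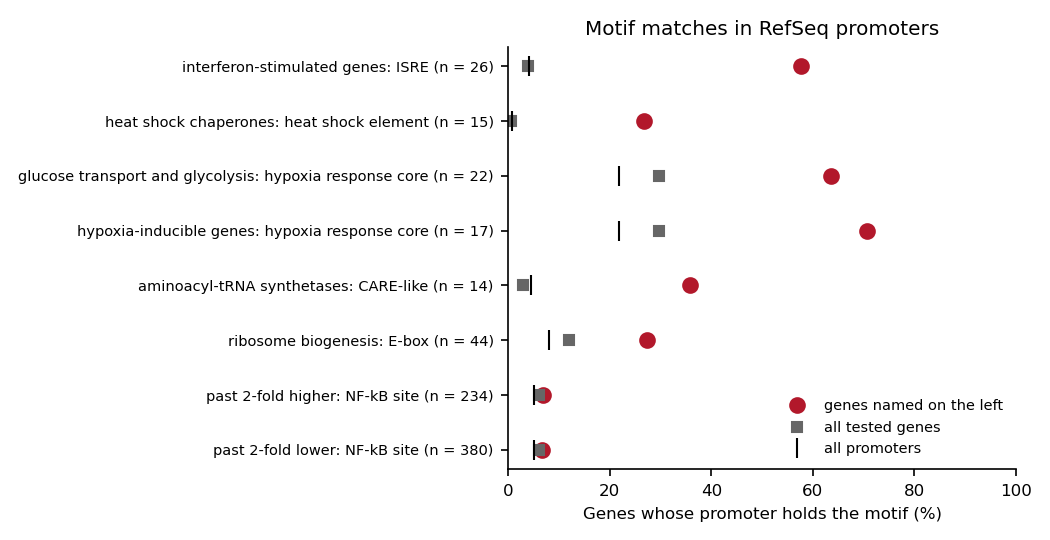
Share of genes (%) whose RefSeq promoter holds a motif, for the genes named on the left (red circles), all tested genes (grey squares) and all promoters (black ticks). The interferon-stimulated genes reach 57.7%, against 3.9% of all tested genes, and the genes called past 2-fold lie at 6.8% and 6.6% for the NF-kB site, against 6.1%.

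Most macrophage markers fell, and markers of other cell types ranged from near 0 to the level of well-read genes. Of 18 tested macrophage and monocyte markers 16 fell and none rose, median -2.65; 1 more was not tested. Their summed level, which is mostly Cybb, a gene that B cells also express, was 382 and 372 CPM at 6h, against 869.8 and 840.2 CPM at 0h. C1qc had 0.0915 and 0.255 CPM at 6h, against 14.1 and 12.9 CPM at 0h, Cd163 had 0.0915 and 0 CPM at 6h, against 6.88 and 5.03 CPM at 0h and Vcam1 had 2.65 and 3.57 CPM at 6h, against 43.1 and 40.3 CPM at 0h. C1qa, Fcna, Abcc3, Trpm2, Frmd4b and Smpd3 had at most 0.5 CPM in both 6h libraries and at least 5 CPM in both 0h libraries. The T cell genes Cd3d, Cd3e, Cd3g, Cd4 and Cd8b1 had 0 to 3 counts in each of the 4 libraries. Cd8a, of the same list, fell, with 1 and 1 counts at 6h, against 41 and 33 counts at 0h (adjusted p = 9.83e-05). Of 15 T cell genes 8 were tested, of which 2 rose and 4 fell, 2 of the falls with any 1 library left out, with a summed level of 127 and 123 CPM at 6h, against 533 and 545 CPM at 0h. Cd2, which mouse B cells also express, made up most of that sum at 0h. Of 15 erythroid and platelet genes 4 fell, 0 of them with any 1 library left out, and they summed to 13.1 and 14.9 CPM at 6h, against 29.8 and 35.9 CPM at 0h. Car1, a carbonic anhydrase of red cells, had 0 and 0 counts at 6h, against 13 and 10 counts at 0h. Of 11 tested dendritic cell markers 2 rose and 4 fell, with Clec9a and Xcr1 lower and Zbtb46 and Ccr9 higher, and Itgax at 1.19 and 1.698 CPM at 6h, against 8.44 and 8.13 CPM at 0h. The whole dendritic cell list summed to 326 and 304 CPM at 6h, against 261 and 259 CPM at 0h. Of 15 stromal and endothelial genes 3 were tested, of which 1 rose and 2 fell, and 4 were at 0 in all 4 libraries. Pecam1, an endothelial marker that B cells also express, had 111 and 106 CPM at 6h, against 374 and 366 CPM at 0h (log2 fold change -1.77 ± 0.19, adjusted p = 1.58e-05) and made up most of that list's sum. Of 11 natural killer cell markers 4 were tested and 2 fell, with a summed level of 5.22 and 5.77 CPM at 6h, against 20.2 and 23.1 CPM at 0h. Of 14 neutrophil and mast cell markers 4 were tested and 1 fell, with a summed level of 0.641 and 0.5095 CPM at 6h, against 1.67 and 2.03 CPM at 0h. The part of such cells in the other results was not tested.

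Beside the wild-type libraries at 27h, the 6h values were the highest of the 3 times in some genes and lay between the other two in others. The 27h and 0h comparisons share the 6h libraries, so each is given by its own values. Between 27h and 6h, 2010 genes were called higher (15.9%) and 2299 lower (18.2%), and the sum of 4309 fell to between 2100.0 and 2345 with 1 library left out. Ccl4 had 29.9 and 27.2 CPM at 0h, then 323 and 420.2 CPM at 6h, then 14.7 and 15.8 CPM at 27h. Il7r had 0.834 and 0.387 CPM at 0h, then 18.03 and 21.995 CPM at 6h, then 3.06 and 4.47 CPM at 27h and Cd86 had 64.6 and 61.7 CPM at 0h, then 293 and 319 CPM at 6h, then 53.1 and 48.9 CPM at 27h, so the highest of the 3 times was 6h in each. Bcl2l1 had 10.5 and 9.68 CPM at 0h, then 62.8 and 72.4 CPM at 6h, then 37.98 and 38.2 CPM at 27h, a partial return (27h over 6h log2 fold change -0.83 ± 0.16, adjusted p = 0.002). Slc16a3 had 0.417 and 0.484 CPM at 0h, then 34.4 and 34.6 CPM at 6h, then 119 and 117 CPM at 27h, and Egln3 had 1.25 and 0.968 CPM at 0h, then 23.8 and 25.6 CPM at 6h, then 208 and 213 CPM at 27h, and in both the 27h libraries lay above the 6h libraries. Pim2 had 47.2 and 46.95 CPM at 0h, then 126 and 134 CPM at 6h, then 337 and 331 CPM at 27h. Hmox1, heme oxygenase, had 49.8 and 52.6 CPM at 0h, then 62.3 and 50.1 CPM at 6h, then 464 and 467 CPM at 27h and did not pass the test between 6h and 0h. Cd79a had 1654 and 1719 CPM at 0h, then 647 and 671 CPM at 6h, then 799.9 and 775 CPM at 27h, and Cd38, an ectoenzyme of mature B cells, had 266 and 274 CPM at 0h, then 105 and 109 CPM at 6h, then 258 and 236 CPM at 27h. In Fosb and Klf4 the 27h libraries lay below the 6h libraries, with 3.82 and 4.87 CPM at 27h for Fosb and 2.21 and 2.88 CPM at 27h for Klf4.

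**Figure D5:**
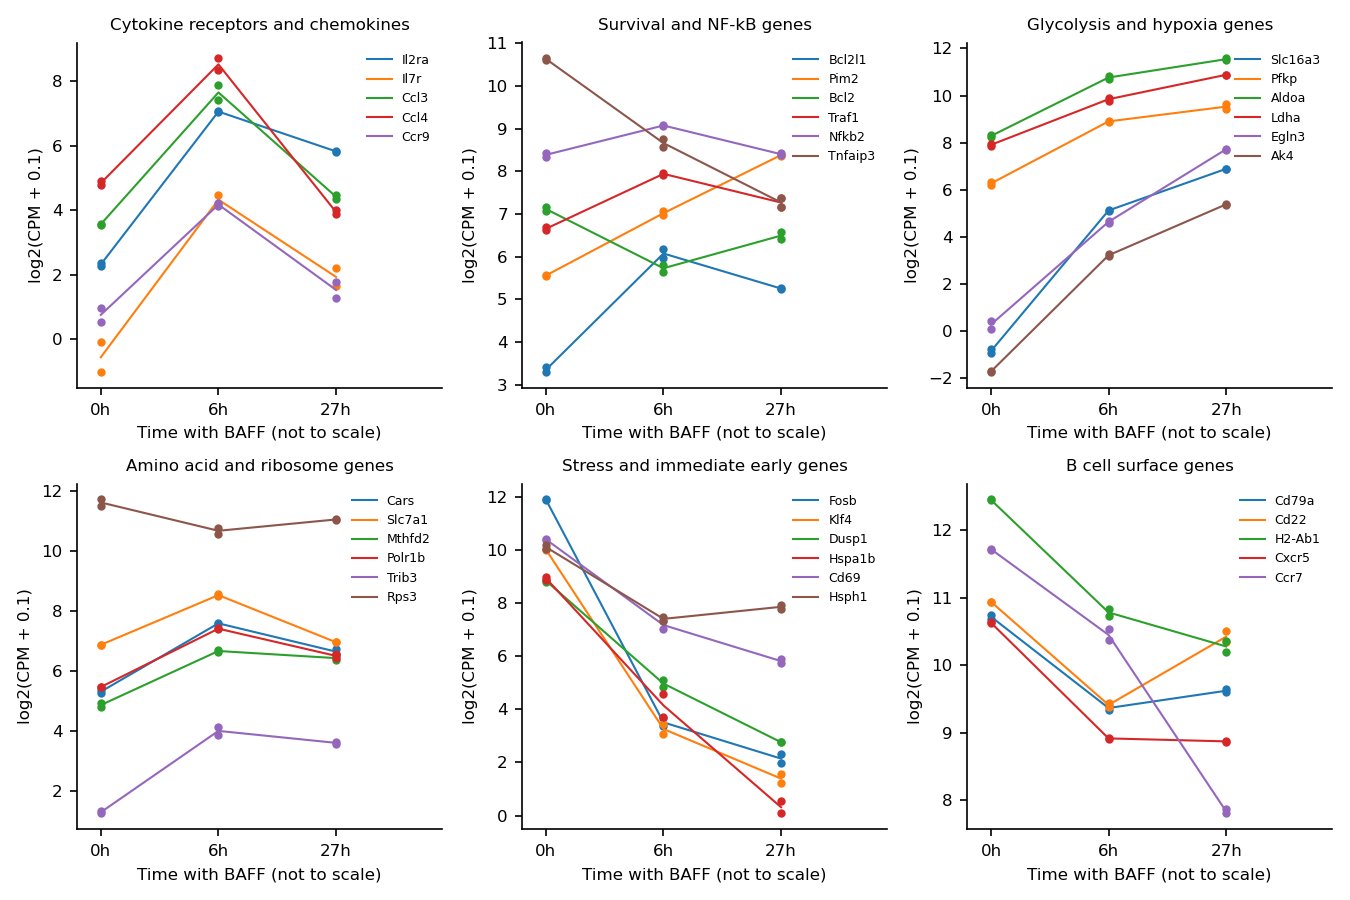
Level as log2(CPM + 0.1) on the y axis at 0h, 6h and 27h (spacing not to scale) in wild-type cells, with 1 point for each library and lines through the means. Ccl3, Ccl4 and Ccr9 are high at 6h alone, the glycolysis and hypoxia genes are as high or higher at 27h, and the stress and immediate early genes are highest at 0h.

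In crel-/- cells the targeted gene Rel had 111 and 95.3 CPM in crel-/- cells at 6h, against 58.3 and 52.4 CPM in crel-/- cells at 0h. The 6h response of most of these genes was not called different from that of wild-type cells: the difference of the responses passed the test for 70 genes with a higher response (0.554%) and 145 with a lower one (1.15%). This sum of 215 depended on single libraries, with 9 genes without wt 0h replicate 1, 16 to 35 on leaving out any 1 of 6 other libraries, and 409 without cko 6h replicate 1. Bcl2l1 had 5.28 and 7.36 CPM in crel-/- cells at 6h, against 8.15 and 8.25 CPM in crel-/- cells at 0h (difference of the log2 fold changes -3.11 ± 0.26, adjusted p = 0.00033), so its 6h libraries did not lie above its 0h libraries in these cells. Mir155hg responded less as well, with 19.6 and 13.4 CPM in crel-/- cells at 6h, against 10.1 and 10.3 CPM in crel-/- cells at 0h (difference of the log2 fold changes -2.48 ± 0.33, adjusted p = 0.00473, but 0.0532 without wt 0h replicate 1). Zbtb46 had 25.1 and 25.6 CPM in crel-/- cells at 6h, against 8.36 and 6.76 CPM in crel-/- cells at 0h (difference of the log2 fold changes -2.63 ± 0.38, adjusted p = 0.0081, but 0.0596 to 0.0732 on leaving out cko 0h replicate 1 or either wt 0h library). Tfrc had 278 and 266 CPM in crel-/- cells at 6h, against 283 and 288 CPM in crel-/- cells at 0h (difference of the log2 fold changes -1.29 ± 0.18, adjusted p = 0.00786, but 0.0529 to 0.0688 on leaving out either cko 0h library, either wt 0h library or wt 6h replicate 2). Hsph1, by contrast, fell further in crel-/- cells, with 97.1 and 98.3 CPM in crel-/- cells at 6h, against 3257 and 3232 CPM in crel-/- cells at 0h (difference of the log2 fold changes -2.35 ± 0.22, adjusted p = 0.000572). Of 19 heat shock chaperones 9 had a response called different. At 0h the crel-/- libraries of Mir155hg, Zbtb46, Tfrc and Hsph1 lay above the wild-type libraries, whose values are given above. The differences of these genes thus lie partly in the 0h levels. The difference did not pass the test for Il2ra (difference of the log2 fold changes -1.93 ± 0.81, adjusted p = 0.278), Ccl4 (difference of the log2 fold changes -1.87 ± 0.53, adjusted p = 0.12) or Aldoa (difference of the log2 fold changes 0.19 ± 0.46, adjusted p = 0.891).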

How the data were processed

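Poly-dT-primed cDNA libraries of splenic follicular B cells were made with a TruSeq kit and sequenced, per the labels' protocols. The deposited values are whole-number read counts per Ensembl gene, 1 table for each library, made by the authors. CASAVA 1.8.2 is listed in the submitters' processing notes. Neither an aligner nor a counter nor a genome build is named in the sources used here. Summary rows of the tables were left out of library sizes; their shares are given with the results. Gene names and positions came from GENCODE M21 (GRCm38), which matched 37607 of 39179 identifiers, holding 99.54% of the counts. Genes on chromosome 18 and some other genes were tested and counted but are not reported here.

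All 14 libraries entered 1 fit in edgeR 4.0.16 (R 4.3.3), with 7 groups, TMM scaling, filterByExpr, a robust quasi-likelihood fit (7 residual degrees of freedom) and Benjamini-Hochberg adjustment. Levels are CPM on TMM-scaled sizes, and changes past 2-fold were tested with glmTreat. The procedure was tested on simulated data with 200 changed genes. DESeq2 1.42.0, other filters and scalings, fewer libraries and the replicate number as a block were alternatives.

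Replicates 1 and 2 ran on lanes 7 and 8. The deviations of same-numbered libraries from their group means correlated by 0.158 between wt 6h and wt 0h, and with 2 libraries in a group this pairs nothing in the design. Named genes were the 15 largest rises and falls above an average log2 CPM of 3 (leaving out gene models without a proper name), the 10 largest gains and losses, genes switched on or off, and the leading members of each list, with some added after their values were seen. The comparison, the lists and the members were chosen with earlier results of these data known. Counting intervals are not given, since the fit includes them, and depth limits the precision of genes under about 1 CPM.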

Additional observations from a re-analysis of the deposited data

Results flagged for a closer look

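Reads outside annotated genes are not part of any comparison above. They made up 11.46% and 9.67% of reads in the 6h libraries, against 5.57% and 5.69% in the 0h libraries.

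The 6h response of crel-/- cells differed from that of wild-type cells by the test of the difference itself (edgeR, Benjamini-Hochberg) for the following genes of the report, each as crel-/- minus wild type on the log2 scale. The survival gene Bcl2l1 differed by -3.11, Mir155hg by -2.48, Ifitm2 by -2.73 and Zbtb46 by -2.63. Of NF-kB genes, Traf1 differed by -1.05, Nfkbie by -1.15 and Nfkbiz by -1.69. Tfrc differed by -1.29, Cdk6 by -1.11, Ago2 by -0.94, Psmd11 by -0.78 and Slamf1 by -0.97. Of chaperones, Hsph1 differed by -2.35 and Hsp90aa1 by -0.87. Positive differences were those of Hmox1 at 2.75, Jun at 1.22 and Cd2 at 0.84. The calls of Bcl2l1, Hsph1 and Hmox1 were kept with any 1 of the 8 libraries left out.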

How the results depend on the processing

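The count of called genes between wt 6h and wt 0h, 5830, was 5395 with DESeq2, 5831 with DESeq2's size factors, 6013 without a filter, 5819 with a CPM filter, 8109 with the 4 libraries alone and 4012 to 4152 with 1 library left out. Genes called higher, 2858, numbered 1862 to 2057 with 1 library left out. Genes past 2-fold, 866, numbered 497 with DESeq2, 1488 with the 4 libraries alone, 1502 with the libraries of the compared genotypes alone and 482 to 521 with 1 library left out. The 4309 genes called between wt 27h and wt 6h became 7662 with the compared genotypes alone and 2100.0 to 2345 with 1 library left out. The 215 genes whose 6h response differed in crel-/- cells became 494 with DESeq2, 654 without a filter, 1292 with the compared genotypes alone and 9 to 409 with 1 library left out. The cause of these shifts was not tested, except that leaving out a library leaves 1 sample in a group, taken to vary as libraries of the other groups do.

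With the replicate number as a replicate block, 5938 genes were called between wt 6h and wt 0h, 917 past 2-fold, 4412 between wt 27h and wt 6h and 209 for the response in crel-/- cells.

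Of 248 tested genes named in the text 227 were called, and 213 of these with any 1 library left out. Directions were reversed for genes that did not pass the test: with 1 library left out, Hmox1 ranged over -0.03 to 0.28, Mga over -0.11 to 0.22, Mlxip over -0.01 to 0.13 and Tlr9 over -0.15 to 0.13 on the log2 scale.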
